A study of Mus musculus with 6 samples.

Results

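Iron enters most cells bound to transferrin, is stored inside ferritin and is sensed by 2 RNA-binding proteins, and 10 genes of this machinery were followed across 6 RNA sequencing libraries of mouse samples. The genes were taken by name: Fth1, Ftl1 and Ncoa4 for storage, Tfrc, Steap3 and Slc11a2 for uptake, Slc40a1 for export, and Aco1, Ireb2 and Fbxl5 for sensing. Each name was found on 1 row of the deposited values, so 10 of 54532 measured genes are described. The samples are labelled lung, with 3 libraries from mice labelled young (3 months old) and 3 from mice labelled aged (18 months old), and the comparison asks which transcripts differ between these ages. No strain, sex, genotype or treatment is given in the sources used here, and both groups were washed in buffer and lysed in the same way. Levels are given as FPKM, in which the fragments of a gene are divided by its length and by the library size. This puts genes and libraries on a common scale, given the deposited gene lengths, but does not correct for differences in library composition.

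Ferritin is a hollow shell built of heavy and light subunits, and the heavy subunit oxidises the iron that is laid down in it. When a cell is short of iron, the iron regulatory proteins, encoded by Aco1 and Ireb2, bind a small hairpin called the iron-responsive element. In the leader of a transcript such a hairpin blocks translation when bound, whereas in the tail of the Tfrc transcript it protects the RNA from decay. In the lung, macrophages of the airspaces are known for taking up iron and holding it in ferritin.

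The hairpins are shown because they are the part of these transcripts that the iron sensors are known to bind. They were searched for in GENCODE M21 transcripts (GRCm38, the same assembly as mm10) as a loop of 6 bases, CAGTGN, closed by 5 base pairs with G-T pairs allowed, with an unpaired C on the 5′ side below them, on the transcript strand only. A fully paired match was found in 4 of the 10 genes, at 7 sites. The sites of the leaders, 5′ to 3′ in 27 bases with the loop in capitals, were these.
Fth1: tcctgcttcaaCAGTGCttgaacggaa
Ftl1: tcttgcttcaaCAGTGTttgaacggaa
Slc40a1: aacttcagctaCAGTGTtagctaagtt
They lie in the 5′ UTR, at chr19:9982733-9982759 on the plus strand for Fth1, at chr7:45459780-45459806 on the minus strand for Ftl1 and at chr1:45925466-45925492 on the minus strand for Slc40a1. The sites of both ferritin subunits differ at 2 of 27 bases, C3T in the lower stem and C17T in the loop, written from Fth1 to Ftl1 and counted from the 5′ end. The 4 sites of Tfrc all lie in its 3′ UTR, on the plus strand.
Tfrc site 1: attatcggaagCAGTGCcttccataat
Tfrc site 2: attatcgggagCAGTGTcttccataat
Tfrc site 3: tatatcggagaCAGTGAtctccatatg
Tfrc site 4: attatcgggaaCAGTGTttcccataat
They are at chr16:32631220-32631246, chr16:32631599-32631625, chr16:32631664-32631690 and chr16:32631711-32631737, within 518 bases of each other, and any pair of them shares 17 to 25 of 27 bases. Slc11a2 had 1 site that was short of 1 pair, with 4 of 5, in the 3′ UTR of at least 1 annotated transcript of the gene. It is at chr15:100395154-100395180 on the minus strand.
Slc11a2: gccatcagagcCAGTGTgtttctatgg
A fully paired match was present in 294 of 21901 protein-coding genes (1.34%), in the 5′ UTR of 31 (0.142%) and in the 3′ UTR of 128 (0.584%), and a match with at least 4 pairs in 2337 (10.7%). The letters of either search were not found in Aco1, Ireb2, Ncoa4, Steap3 or Fbxl5. A match describes the sequence, and binding was not measured.

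The libraries held 16649061 to 17456715 recovered reads each, and the contents of all 6 went against the tissue label. Of 8 markers of lung epithelium, 7 were below 1 FPKM in every library (Sftpc at most 0.112), with Hopx making up most of a sum of 10.8 to 11.2 FPKM in the libraries labelled young and 7.08 to 7.91 in those labelled aged. All 6 endothelial markers were below 1 FPKM, summing to 0.412 to 0.606 and 0.922 to 1.20 in the same order. Of 8 macrophage and leukocyte markers, 7 were below 1 FPKM, and Cd68 carried most of sums of 5.99 to 7.81 and 16.2 to 17.3. All 7 erythroid markers were below 1 FPKM (sums of 1.01 to 1.64 and 1.47 to 1.73), as were all 7 hepatocyte markers (0.146 to 0.311 and 0.227 to 0.341), with the hepcidin gene Hamp at 0 in every library. Fibroblast and mesenchymal markers were at 10 FPKM or more in every library for 6 of 8 genes, with sums of 1168 to 1197 and 924 to 961. Thy1 and Dcn, the other markers of this set, were below 1 FPKM in every library (at most 0.466 and 0.109). Kidney tubule markers summed to 134 and 27.4 FPKM in the libraries labelled young 1 and 3, against 1.57 in young 2 and 2.53 to 3.34 in the libraries labelled aged. The groups are therefore called by their labels, and the part of these contents in the results below was not tested, apart from leaving out libraries young 1 and 3.

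Of the 9 iron genes that passed a filter of 0.5 FPKM in at least 3 of 6 libraries, 7 differed between the groups and 2 did not pass the test, and Slc40a1 was too low to be tested. Ftl1, Ncoa4, Steap3 and Slc11a2 were higher in the libraries labelled aged, and Tfrc, Aco1 and Fbxl5 were lower, by 1.18-fold to 1.58-fold in the mean. The test was limma on log2(FPKM + 1), with p-values adjusted over 15197 genes and a threshold of 0.05. By the same rule 60.0% of all tested genes were called, 27.7% higher and 32.3% lower, beside 77.8% of the 9 iron genes. The groups did not overlap for 7 of the 9, beside 66.9% of all tested genes. The median absolute log2 fold change was 0.44 for the 9 iron genes and 0.28 for all tested genes, and 90% of all tested genes lay below 0.77. Most tested genes thus differed between these libraries, and the number of iron genes called is not by itself a result about iron genes. No label ties the 3 libraries of a group to different mice, so p-values reflect spread among these libraries alone, and that spread could be technical. In bulk samples fewer cells of a type and less RNA per cell cannot be told apart.

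**Figure D1:**
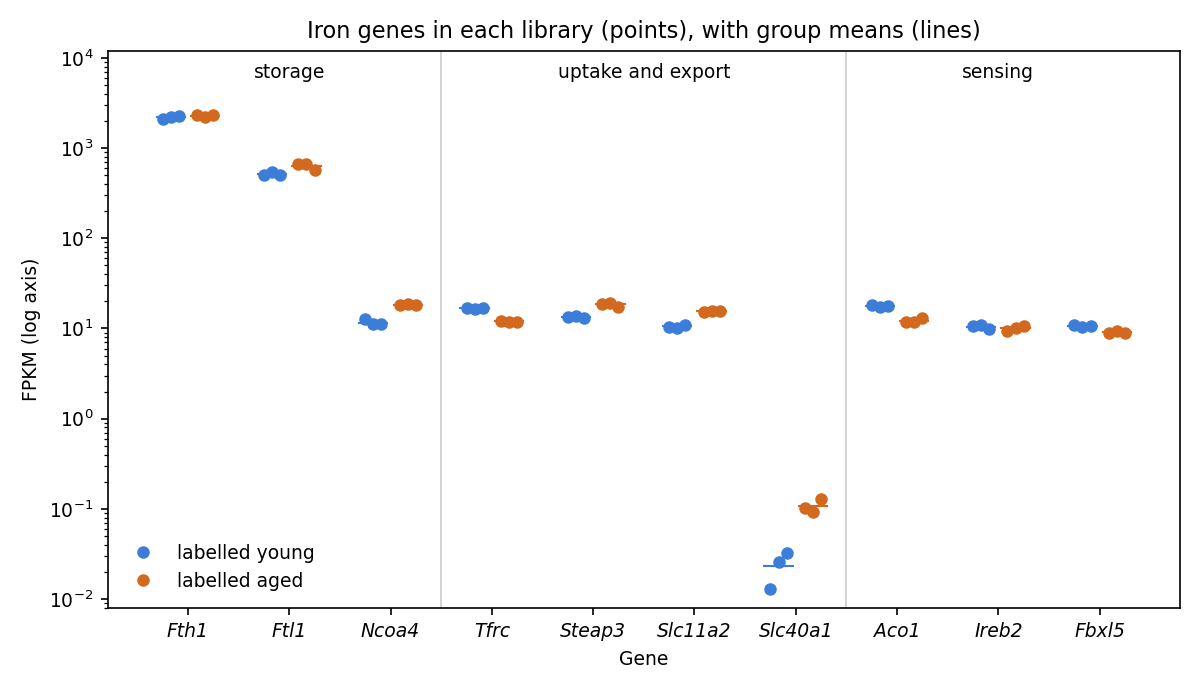
FPKM on a log axis of the 10 iron genes, 1 point per library (blue, labelled young; orange, labelled aged) with lines at the group means. Fth1 and Ftl1 stand at 502 FPKM or more in every library, the other 8 genes lie at or below 19.3 FPKM, and Slc40a1 reaches at most 0.129.

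Fth1, the heavy ferritin subunit (ENSMUSG00000024661, chromosome 19, 9982703 to 9985092, plus strand), was the most abundant of the 10. It had 2106, 2201 and 2282 FPKM in the libraries labelled young and 2316, 2188 and 2337 in those labelled aged. The groups overlapped, since the lowest aged value lay below 2 of the young ones. The means were 2197 ± 88.1 and 2280 ± 80.6 FPKM (SD, n = 3 each), a log2 difference of 0.05 ± 0.06 (SE, 95% interval -0.09 to 0.19, limma adjusted p = 0.461). It was the 4th or 5th most abundant of all genes in each library, with 31411 to 34782 reads. That is 0.182% to 0.206% of a library's reads.

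Ftl1, the light subunit (ENSMUSG00000050708, chromosome 7, 45457944 to 45459884, minus strand), rose. Its levels were 508, 542 and 502 FPKM in the libraries labelled young and 662, 672 and 576 in those labelled aged. Every aged library stood above every young one, with the third aged library nearest to them. The means of 517 ± 21.5 and 637 ± 52.7 FPKM differed 1.23-fold (log2 fold change 0.30 ± 0.07, limma adjusted p = 0.00871). Its share of reads was 0.0667% to 0.0722% in the young and 0.0785% to 0.0917% in the aged group, and its place among all genes moved from between 47th and 55th to between 27th and 30th. Without libraries young 1 and 3, the log2 difference was 0.23 and no longer passed (adjusted p = 0.163).

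Both ferritin genes have near-identical copies in the genome, so reads could be split among them. The copies of the light chain held reads equal to 2.52% of those of Ftl1, nearly all on Ftl1-ps1 (899 reads over the young and 1063 over the aged libraries). The copies of the heavy chain held 0.0110% of the reads of Fth1. Gm10252, which overlaps Ftl1 on the opposite strand, had 8 reads in the young and 81 in the aged group, beside 35930 and 43810 for Ftl1. How strand entered the counting is not stated by the sources used here, so reads of an overlapping pair cannot be told apart.

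Ncoa4 encodes the receptor that carries ferritin to lysosomes, where its iron is released (ENSMUSG00000056234, chromosome 14, 32159865 to 32179855, plus strand). It had 12.6, 11.2 and 11.1 FPKM in the libraries labelled young and 18.2, 18.9 and 18.0 in those labelled aged. The groups were far apart next to their spread, and the log2 fold change was the largest in size among the 9 tested genes. The means of 11.6 ± 0.835 and 18.4 ± 0.461 FPKM differed 1.58-fold (log2 fold change 0.62 ± 0.05, limma adjusted p = 0.000104).

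Tfrc, the transferrin receptor through which most cells import iron (ENSMUSG00000022797, chromosome 16, 32608920 to 32632794, plus strand), fell. Its levels were 17.0, 16.5 and 17.1 FPKM in the young group and 12.3, 11.9 and 11.9 in the aged group. The spread within each group was small next to the gap between them. The means of 16.9 ± 0.314 and 12.0 ± 0.212 FPKM gave a 1.40-fold lower level (log2 fold change -0.46 ± 0.03, limma adjusted p = 5.35e-05). Its transcript carries the 4 hairpins shown above.

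Steap3 and Slc11a2, which act after the receptor is taken up, moved in the other direction. Of 15 other tested uptake and transport genes, 5 were higher, 6 were lower and 4 were not called. Steap1 and Steap2 were among those not called. Steap3, the endosomal reductase that turns ferric into ferrous iron (ENSMUSG00000026389, chromosome 1, 120190757 to 120272705, minus strand), had 13.4, 13.7 and 13.0 FPKM in the young and 18.9, 19.3 and 17.5 in the aged libraries. The groups did not overlap, and the means of 13.4 ± 0.340 and 18.5 ± 0.950 FPKM differed 1.39-fold (log2 fold change 0.44 ± 0.05, limma adjusted p = 0.000225). Slc11a2 encodes DMT1, the transporter that moves ferrous iron out of the endosome into the cytosol (ENSMUSG00000023030, chromosome 15, 100387898 to 100425072, minus strand). It had 10.5, 10.3 and 11.1 FPKM in the young and 15.3, 15.6 and 15.7 in the aged libraries. Again no library of one group reached the other, and the means of 10.6 ± 0.416 and 15.5 ± 0.219 FPKM differed 1.46-fold (log2 fold change 0.51 ± 0.04, limma adjusted p = 6.43e-05). Transcript isoforms of Slc11a2 with and without the hairpin are summed in this value, and Gm5475, which overlaps it on the opposite strand, had 4 reads in the young and 29 in the aged group.

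Slc40a1 encodes ferroportin, the iron exporter of the cell membrane (ENSMUSG00000025993, chromosome 1, 45908068 to 45926523, minus strand), and was close to absent. It had 2, 4 and 5 reads in the libraries labelled young and 16, 14 and 20 in those labelled aged, or 0.0129, 0.0256 and 0.0322 FPKM against 0.103, 0.0917 and 0.129. For scale, 3 reads of this gene are worth 0.0192 to 0.0197 FPKM. Over each group that is 11 against 50 reads, a ratio per read sequenced of 4.70 with an exact 95% interval of 2.41 to 10.005, which covers counting error only. Every aged library was above every young one, yet the level was at most 0.129 FPKM. Without a filter, limma gave a log2 difference of 0.11 (adjusted p = 0.0162), on a scale that understates changes at such levels.

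The sensors did not move together. Aco1, which encodes IRP1, a cytosolic aconitase that binds RNA when it lacks its iron-sulphur cluster (ENSMUSG00000028405, chromosome 4, 40143081 to 40198338, plus strand), had 18.1, 17.4 and 17.8 FPKM in the young and 11.9, 11.7 and 13.0 in the aged libraries. Every aged library lay below every young one. The means of 17.8 ± 0.366 and 12.2 ± 0.711 FPKM gave a 1.46-fold lower level (log2 fold change -0.51 ± 0.05, limma adjusted p = 0.000137).

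Ireb2, which encodes the other regulatory protein, IRP2 (ENSMUSG00000032293, chromosome 9, 54863789 to 54912530, plus strand), had 10.7, 10.9 and 9.90 FPKM in the young and 9.31, 10.2 and 10.6 in the aged libraries. The groups overlapped. The means were 10.5 ± 0.524 and 10.01 ± 0.635 FPKM, a log2 difference of -0.06 ± 0.06 (95% interval -0.20 to 0.08, limma adjusted p = 0.395). IRP2 is known to be controlled mainly by protein breakdown, which RNA does not show.

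Fbxl5 encodes the iron-binding ubiquitin ligase subunit that marks IRP2 for that breakdown (ENSMUSG00000039753, chromosome 5, 43744615 to 43821638, minus strand). It had 11.0, 10.4 and 10.6 FPKM in the young and 8.85, 9.37 and 8.94 in the aged libraries. The groups did not overlap, but the step was the smallest among the 7 called genes on the log2 scale. The means of 10.7 ± 0.288 and 9.05 ± 0.273 FPKM gave a 1.18-fold lower level (log2 fold change -0.21 ± 0.04, limma adjusted p = 0.00350). Without libraries young 1 and 3 it was -0.18 and no longer passed (adjusted p = 0.0809). Bst1, which overlaps Fbxl5 on the opposite strand, had 134 reads in the young and 181 in the aged group, the other way from Fbxl5.

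**Figure D2:**
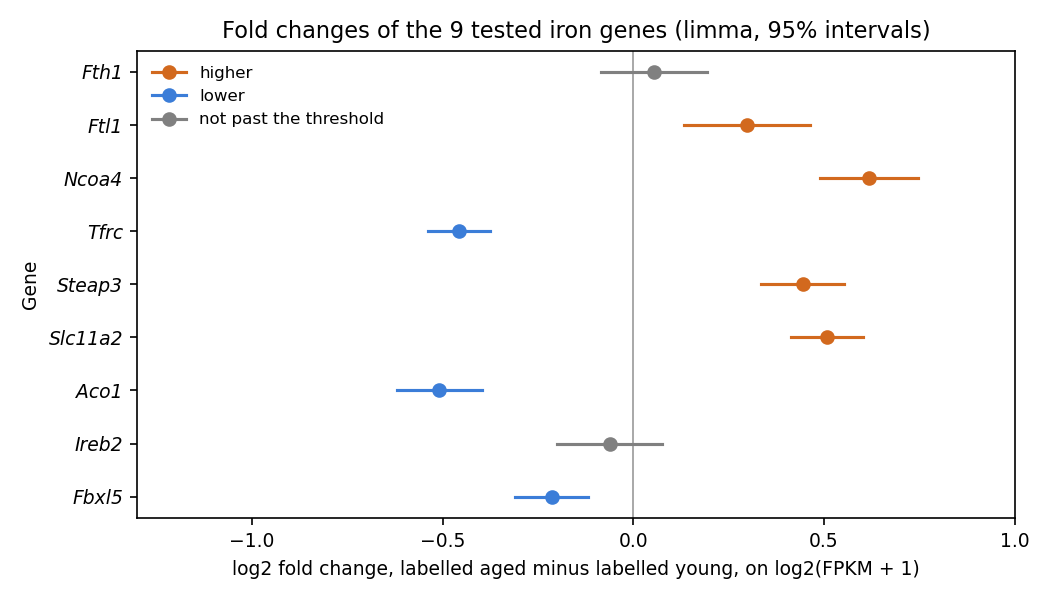
Log2 fold change of the 9 tested iron genes, libraries labelled aged minus those labelled young on log2(FPKM + 1), with 95% intervals from limma; orange and blue mark genes past the threshold, grey those not past it. Ncoa4 reaches 0.62 and Aco1 -0.51, while the intervals of Fth1 and Ireb2 include 0.

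Without libraries young 1 and 3 the calls of Ncoa4 (log2 fold change 0.66), Slc11a2 (0.55), Steap3 (0.41), Tfrc (-0.43) and Aco1 (-0.48) were kept, with limma adjusted p from 0.00313 to 0.0156. This fit leaves 1 library labelled young, which is assumed to vary like the others.

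The order of the levels shifted between the groups below the ferritin genes. In the libraries labelled young, Fth1 and Ftl1 were followed by Aco1, Tfrc, Steap3 and Ncoa4, each above the next in every library. Fbxl5, Slc11a2 and Ireb2 came next and did not differ beyond their spread, and Slc40a1 was last. In the libraries labelled aged, Steap3 and Ncoa4 followed the ferritins with overlapping ranges, and Slc11a2 stood below them. Aco1 and Tfrc overlapped with each other, as did Ireb2 and Fbxl5 below them, and Slc40a1 was again last. Aco1 and Tfrc thus led this part of the order in one group and stood below Steap3, Ncoa4 and Slc11a2 in the other. Such an order between genes depends on the gene lengths used for FPKM, such as 4496 bases for Aco1 and 9365 for Ncoa4. By reads over the young libraries, Ncoa4 (5647) stood above Tfrc (5407) and Aco1 (4140), while Steap3 (3959) stayed below them.

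Ratios between a pair of genes within a library do not depend on how that library was scaled, and 3 were compared. The level of each ratio depends on the gene lengths used for FPKM, while its change between the groups does not. These lengths were 866 bases for Fth1 and 1340 for Ftl1, whereas their transcripts shown with a hairpin have 929 and 968. The ratio of heavy to light ferritin transcripts, Fth1 to Ftl1, was 4.15, 4.06 and 4.55 in the young and 3.50, 3.26 and 4.05 in the aged libraries. The highest aged value lay just under the lowest young one. Means were 4.25 ± 0.260 and 3.60 ± 0.410 (SD, n = 3 each), 1.18-fold lower in the aged group (exact permutation p = 0.1, 2-sided).

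Set against storage, the uptake receptor was lower: there were 124, 133 and 134 FPKM of Fth1 per FPKM of Tfrc in the young and 189, 184 and 197 in the aged libraries. The groups were well apart, with the Tfrc to Fth1 ratio 1.46-fold lower in the aged group (log2 ratio -7.02 ± 0.06 and -7.57 ± 0.05, exact permutation p = 0.1). The ratio of Aco1 to Ireb2 was 1.70, 1.59 and 1.80 in the young and 1.28, 1.15 and 1.23 in the aged libraries, with no overlap. It was 1.39-fold lower in the aged group (means of 1.70 ± 0.104 and 1.22 ± 0.0674, exact permutation p = 0.1). An exact test of 3 against 3 cannot give less than 0.1, and all 3 stay at 0.1 after Benjamini-Hochberg adjustment over the 3 ratios. They share genes with the values above and add no independent evidence.

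**Figure D3:**
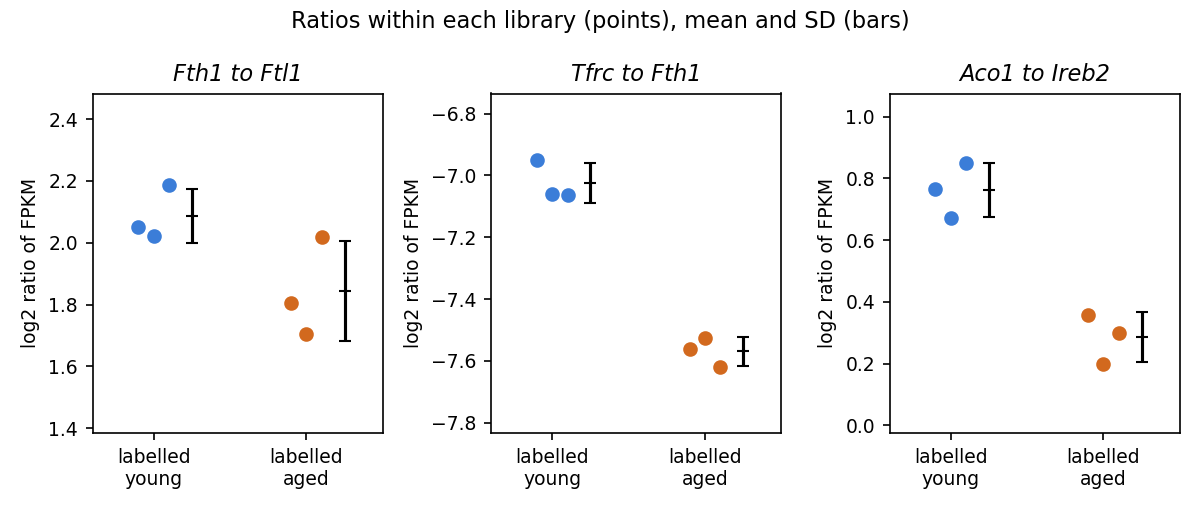
Log2 ratio of FPKM within each library for 3 pairs of iron genes, 1 point per library, with bars at the mean and SD of each group (n = 3); each panel has its own axis, which does not start at 0. In all 3 panels the aged libraries lie below the young ones, least clearly for Fth1 to Ftl1, where 4.05 in the third aged library is next to 4.06 in the second young one.

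Around these 10 genes, 124 other genes of iron biology were taken from 9 lists, of which 99 passed the filter. Of these, 30 were higher, 48 were lower and 21 did not pass the test, so 78.8% were called beside 60.0% of all tested genes. The median log2 fold change of the 99 was -0.11, beside -0.03 for all tested genes. Some genes stand on more than 1 list, and each is counted once in these totals.

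Among 22 other uptake and transport genes, 15 were tested, of which 5 were higher and 6 lower, or 73.3% called beside 60.0% of all tested genes. Pcbp2, a chaperone that hands iron to ferritin, had 84.0 ± 1.60 FPKM in the young and 45.9 ± 0.515 in the aged group, 1.83-fold lower (limma adjusted p = 3.73e-06). The phagosomal iron transporter Slc11a1 was 1.62-fold lower (16.7 ± 0.922 and 10.3 ± 0.203 FPKM), while Mcoln1, a lysosomal channel that lets iron out, was 1.53-fold higher (9.27 ± 0.404 and 14.2 ± 0.238 FPKM). Tfr2, the second transferrin receptor, and Lcn2, a carrier of iron-binding siderophores, fell 2.61-fold and 2.12-fold from low levels of 1.85 ± 0.256 and 3.51 ± 0.683 FPKM. The iron carrier of plasma, Trf, had 4 reads over the young and 8 over the aged libraries and was not tested.

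Of 8 other storage and ferritin turnover genes, 7 were tested, 3 higher and 2 lower, or 71.4% called beside 60.0% of all tested genes. Both lower genes were the iron chaperones, Pcbp2 and Pcbp1, the second from 87.5 ± 1.16 to 73.3 ± 1.83 FPKM. The mitochondrial ferritin Ftmt had no read in any library. Among the higher genes, chosen here after their values were seen, Tax1bp1, an adaptor of ferritin delivery to lysosomes, was at 35.7 ± 0.857 and 39.0 ± 1.31 FPKM (limma adjusted p = 0.0233). Bola2 and Glrx3, partners in handling iron-sulphur clusters, were the other two.

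Of 13 other genes of export and the hepcidin axis, 6 were tested, 2 higher and 3 lower. The share called was 83.3%, beside 60.0% of all tested genes. Ceruloplasmin, Cp, the copper oxidase that works with ferroportin, fell 1.35-fold (9.96 ± 0.577 to 7.36 ± 0.342 FPKM). Hfe, a partner of the transferrin receptors, rose 1.69-fold (2.98 ± 0.210 to 5.03 ± 0.132 FPKM), and Hjv, a co-receptor that drives hepcidin in the liver, fell 2.27-fold (1.52 ± 0.276 to 0.672 ± 0.220 FPKM). With Slc40a1 at trace level and Hamp at 0, both ends of the hepcidin and ferroportin pair were near or at 0 in every library.

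Of 9 other sensing genes, 8 were tested, 3 higher and 3 lower, or 75.0% called beside 60.0% of all tested genes. Ciao2a, which delivers an iron-sulphur cluster to IRP1, rose 1.58-fold (53.8 ± 2.96 to 84.8 ± 1.25 FPKM, limma adjusted p = 3.71e-05), the opposite direction to Aco1. Bach1, a haem-sensing repressor that controls ferritin and haem oxygenase genes, fell 1.23-fold (9.07 ± 0.325 to 7.39 ± 0.0712 FPKM).

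Of 7 other transcripts known for an iron-responsive element, 4 were tested, of which 0 were higher and 3 lower. This made 75.0% called, beside 60.0% of all tested genes. The lower ones included, named after their values were seen, the kinase gene Cdc42bpa (6.93 ± 0.296 to 4.92 ± 0.263 FPKM) and the phosphatase gene Cdc14a (1.35 ± 0.0558 to 0.736 ± 0.0499 FPKM). Transcripts that carry the hairpin therefore included higher (Ftl1), lower (Tfrc) and uncalled (Fth1) ones.

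Iron leaves the cytosol for mitochondria, where clusters and haem are made. Of 23 genes of mitochondrial iron import and iron-sulphur cluster assembly, 22 were tested, 5 higher and 12 lower. Called genes made up 77.3%, beside 60.0% of all tested genes. The importer Slc25a37 rose 1.26-fold (40.8 ± 1.10 to 51.3 ± 0.695 FPKM) and the scaffold Iscu rose 1.51-fold (18.5 ± 0.884 to 27.8 ± 1.05 FPKM), while Isca2, a late assembly factor, fell 1.43-fold (14.1 ± 0.576 to 9.88 ± 0.490 FPKM). Fdxr, the reductase that supplies electrons, named after its values were seen, fell 1.96-fold (8.72 ± 0.511 to 4.46 ± 0.606 FPKM).

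All 11 genes of cytosolic cluster assembly were tested, 8 higher and 2 lower, with a median log2 fold change of 0.24. This made 90.9% called, beside 60.0% of all tested genes (27.7% higher and 32.3% lower). Nubp2, a scaffold of that machinery, had the largest log2 fold change of the 99 genes (1.65), from 21.5 ± 1.70 to 69.3 ± 0.634 FPKM or 3.22-fold higher (limma adjusted p = 3.73e-06). Ndor1, its electron donor, rose 1.95-fold from 1.34 ± 0.0622 to 2.61 ± 0.180 FPKM.

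Of 22 haem genes, 19 were tested, 4 higher and 12 lower, or 84.2% called beside 60.0% of all tested genes. Alas1, the first and rate-limiting enzyme of haem synthesis, fell 1.93-fold (6.43 ± 0.487 to 3.33 ± 0.0511 FPKM). Blvrb, a biliverdin reductase, fell 2.14-fold (30.5 ± 4.14 to 14.3 ± 1.07 FPKM). On the higher side, Lrp1, the receptor for haem bound to haemopexin, rose 1.83-fold (50.6 ± 0.853 to 92.8 ± 4.17 FPKM), and Hpx, haemopexin itself, rose 2.48-fold from 0.528 ± 0.148 to 1.31 ± 0.208 FPKM. Hmox1, haem oxygenase, which frees iron from haem, was named after its values were seen and rose 1.62-fold (16.8 ± 3.22 to 27.2 ± 0.253 FPKM, limma adjusted p = 0.00224).

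Ferroptosis is cell death by iron-driven lipid peroxidation, and of 18 genes of that process 14 were tested, 4 higher and 7 lower. The share called was 78.6%, beside 60.0% of all tested genes. Lpcat3 and Acsl4, which load peroxidisable fatty acids into membranes, fell 2.01-fold (28.2 ± 0.918 to 14.0 ± 0.867 FPKM) and 1.67-fold (17.4 ± 0.530 to 10.4 ± 0.493 FPKM). Sat1, a polyamine acetyltransferase, fell 1.60-fold (32.0 ± 0.996 to 20.0 ± 0.184 FPKM), and Ptgs2, a cyclooxygenase used as a marker of the process, rose 3.10-fold (2.39 ± 0.186 to 7.43 ± 1.20 FPKM). Some protective genes of the list were named after their values were seen. Aifm2 fell 1.65-fold (12.7 ± 0.944 to 7.66 ± 0.560 FPKM, limma adjusted p = 0.000243), while Gch1 and Dhodh did not pass the test. Gpx4, the peroxidase that removes lipid peroxides, fell from 174 ± 16.5 to 140 ± 9.50 FPKM (limma adjusted p = 0.0139), and Slc7a11, the cystine importer, rose from 1.27 ± 0.0668 to 1.76 ± 0.0185 FPKM (limma adjusted p = 0.00785).

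**Figure D4:**
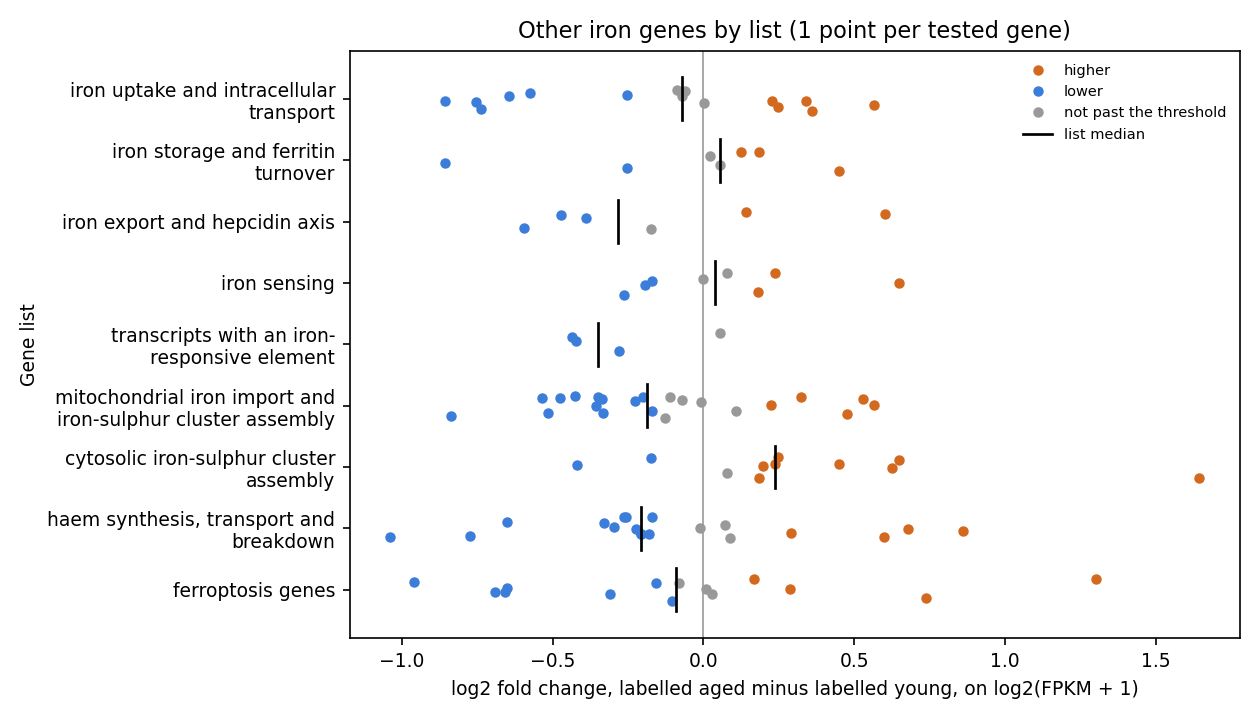
Log2 fold change on log2(FPKM + 1), aged minus young, of the tested genes of 9 iron lists without the 10 genes described first, 1 point per gene, with a bar at each list's median; vertical spread within a list has no meaning. The median is highest for cytosolic cluster assembly (0.24) and lowest for transcripts with an iron-responsive element (-0.35, 4 genes), and most lists have genes on both sides of 0.

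For Ncoa4 and Aco1, which had the largest absolute log2 fold changes on log2(FPKM + 1), the genes of most similar pattern over the 6 libraries were listed from 11692 protein-coding genes. For Ncoa4 these were Aga, Polr3a and Canx (Pearson's r of log2(FPKM + 1) of 0.999 each), and 191 genes were above 0.99. For Aco1 they were Map3k1, Creb1 and Mgrn1, and 421 genes were above 0.99. Aco1 was ahead of Slc11a2 only narrowly on that scale (-0.51 and 0.51). Slc11a2 was ahead with voom on recovered reads (0.58 and -0.51), median centring (0.57 and -0.44) and TPM (0.56 and -0.51), among others. In other alternatives Aco1 stayed ahead, as without library young 2 (-0.52 and 0.49). The 6 points of each gene share the libraries and the gap between the groups, and the values are given as a description.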

How the data were processed

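RNA of 6 samples labelled lung was sequenced as read pairs and aligned with HISAT2 2.0.5 to mm10, per the submitters' processing notes. The counting program, its annotation and its strand setting are not stated in the sources used here. The authors deposited FPKM per gene, with gene length. Whole reads were recovered from FPKM times length, where 100% of values were whole multiples of 1 step within 0.01. Scaling sizes were 16959288 to 17361949 reads. The interval of the Slc40a1 read ratio covers counting error only, whereas limma intervals reflect spread among the libraries.

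Groups followed the age labels. Values were tested as log2(FPKM + 1) with limma 3.58.1 in R 4.3.3 (mean-variance trend, 2-sided, Benjamini-Hochberg over 15197 genes with at least 0.5 FPKM in 3 libraries, threshold 0.05). Fold changes on that scale understate low genes, and printed folds are ratios of mean FPKM. Ratios used exact permutation tests. The rest was done in Python 3.11.15 with scipy 1.17.1, pandas 2.3.3 and numpy 2.4.6, and drawn with matplotlib 3.10.9. The fit was tested on simulated reads.

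The 10 genes and the lists were chosen with earlier results of these data known. Beside them, each list's 3 genes of smallest p were named, plus those with a mean ratio of at least 2 where the higher group reached 1 FPKM, and the 3 genes most alike to each of the 2 genes with the largest absolute log2 fold change on log2(FPKM + 1). Some genes that this rule takes are left out of the text. Other names are marked as chosen after their values were seen. In the lists, 4 symbols were matched through a synonym, and Ndor1, on 2 rows, was read from the row with more reads. In all, 18 alternatives were run, 17 of them planned, and the other was chosen after seeing the data. No pairing by replicate number was seen, and the main test used none.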

Additional observations from a re-analysis of the deposited data

How the results depend on the processing

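Across 18 alternatives, 7 of the iron genes were called in all but 3. Without a filter 8 of 10 were called, with Slc40a1 added and p-values adjusted over 33676 genes. With voom on recovered reads 8 were called, with Fth1 at 0.09 (adjusted p = 0.0349). Without libraries young 1 and 3, an alternative chosen after seeing the data, 5 were called (3 higher, 2 lower), and 54 of the other iron genes in place of 78, while calls over all 15197 tested genes fell to 2938 higher and 3296 lower. The planned version with at least 2 libraries in each group was not run, because the young group would keep 1. Leaving out each library in turn left 7 iron genes called each time and 69 to 75 of the others. Over all 15197 tested genes, these fits called 3764 to 4030 higher and 4363 to 4678 lower. Deviations from the group means correlated between same-numbered libraries at r of -0.0079 to 0.0192, and between differently numbered ones at -0.040 to 0.036. These values showed no pairing by number, but so few libraries cannot exclude one. With a replicate block 7 iron genes and 70 others were called, beside 3927 higher and 4514 lower over all tested genes. Ncoa4, Slc11a2, Steap3, Tfrc and Aco1 kept their call in all 18. The direction turned for the uncalled Fth1 under quantile normalization (-0.091, adjusted p = 0.353) and for the uncalled Ireb2 under median centring (0.0043, adjusted p = 0.954). The cause was not tested. Over all 15197 tested genes, higher calls outnumbered lower ones under median centring (4988 and 4026, in place of 4212 and 4903), and voom called 4725 and 4787. Higher calls also outnumbered lower ones without a filter (4814 and 4516), where 33676 genes were tested. Ratios kept their direction in every alternative tried. At a few reads per library, Slc40a1 is limited by depth.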
